A study of Mus musculus with 49 samples.

Results

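CD274+CD69+ cells and Lgr5-GFP-Cre stem cells, both sorted from crypts of the mouse proximal small intestine, were compared by RNA sequencing in 5 libraries of 25 RNA libraries among 49 samples in all. The libraries were taken by their labels, 2 of CD274+CD69+ cells and 3 of Lgr5-GFP-Cre cells, and no measured value entered the choice. CD274+CD69+ cells came from untreated wild type mice and were sorted with antibodies to both surface proteins after crypts had been broken up in Dispase at 0.5 U/ml for 30 min at 37 °C. Lgr5-GFP-Cre cells came from untreated mice carrying the Lgr5EGFP-IRES-CRE-ERT2 allele, and the brightest GFP cells were sorted after TrypLE for 45 min at 37 °C and frozen in TRIzol. All of these mice were adults of a mixed B6;129 background, and crypts were first released in 5 mM EDTA for 45 min at 4 °C in both protocols. The labels of the CD274+CD69+ samples end the cell protocol with chromatin transposition while naming TRIzol for RNA extraction, so how these cells were held between sort and lysis is not given in the sources used here. Replicate 1 of the CD274+CD69+ cells is labelled as a TruSeq library and the other 4 as SMART-Seq v4. Lgr5-GFP-DTR cells (2 libraries, GFP+ cells of mice with an Lgr5EGFP-DTR allele, TrypLE) and Bmi1-GFP cells (3 libraries labelled control, TrypLE) served as further populations to set the same CD274+CD69+ libraries against. The enzyme, the sort and the genotype all differ between the groups compared, so their effects on RNA cannot be told apart.

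The crypt base holds Lgr5-expressing stem cells, which divide under Wnt signals and whose daughters take either the absorptive path to enterocytes or, with Notch signalling off, a secretory path to goblet, Paneth, enteroendocrine and tuft cells. CD274, also called PD-L1, is an immune checkpoint ligand, and CD69 is a lectin-like receptor best known from activated and tissue-resident lymphocytes. The pair of antigens has been used with the Bmi1-GFP reporter to mark crypt cells other than Lgr5 stem cells.

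Library totals were 19119454 and 20929264 counts for CD274+CD69+ cells, against 15507678, 13623911 and 22055980 counts for Lgr5-GFP-Cre cells. Levels are TMM-scaled CPM, a gene's counts as a share of the library, compared only within a gene. The 2 CD274+CD69+ libraries were closer to each other than any other pair of replicates. Their median absolute log2 difference was 0.08 over 9760 genes at 5 CPM or more in both, and 4 of those genes differed more than 2-fold. In the 14 other pairs the median lay between 0.16 and 0.39, and between 99 and 1144 genes differed more than 2-fold. The pair still differed by more than counting error: the median chi-square per gene was 1.23, where counting error alone gives 0.455, and 24.5% of 12393 genes passed the 95% limit. That difference does not show that the libraries came from separate mice. They were counted as 2 samples because the labels call them biological replicates, and the main counts are also given with both summed to 1 library.

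**Figure D1:**
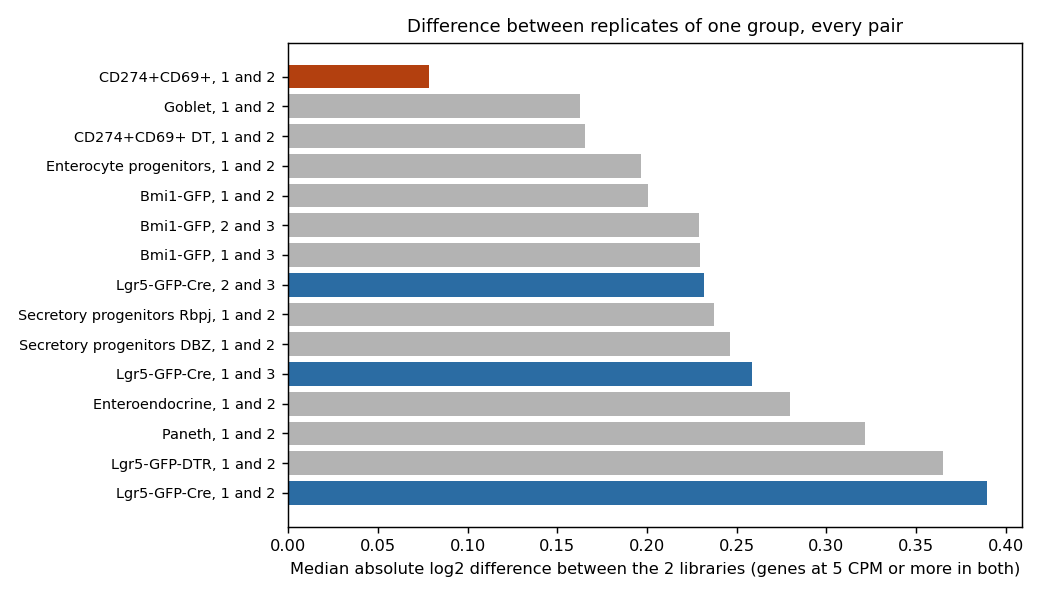
Median absolute log2 difference between the libraries of each replicate pair, among genes at 5 CPM or more in both; bars are coloured for CD274+CD69+ (orange) and Lgr5-GFP-Cre (blue) pairs and grey for the other groups. The CD274+CD69+ pair stands at 0.08, and the 3 Lgr5-GFP-Cre pairs lie between 0.23 and 0.39.

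The kit label of CD274+CD69+ replicate 1 was set against transcripts that kits can capture to different degrees. Histone genes of the replication-dependent clusters, whose RNA lacks a poly(A) tail, summed to 185 CPM in that library and 163 CPM in replicate 2. The other TruSeq libraries, both of crypts labelled Rbpj-deleted, had 75.5 and 88.3 CPM, and the 21 SMART-Seq v4 libraries of the fit between 115 and 657 CPM. The ribosomal precursor Rn45s stood at 7792 and 6487 CPM in CD274+CD69+ replicates 1 and 2, against 1449 and 1328 CPM in the other TruSeq libraries. The library labelled TruSeq thus had both measures within the range of the SMART-Seq v4 libraries. Both other TruSeq libraries lay below the lowest SMART-Seq v4 value for histone genes. For Rn45s the SMART-Seq v4 libraries ranged from 539 to 28959 CPM, which also holds the other TruSeq libraries, so Rn45s cannot separate the kits. Since those TruSeq libraries are of a single population, kit and population cannot be told apart in the histone values either. Whether that label or the preparation is in error was not tested. Among genes at 20 CPM or more, the largest differences between CD274+CD69+ replicates 1 and 2 were in Gzma, the granzyme of cytotoxic lymphocytes (15.5 and 51.7 CPM), Thbs1 (83.6 and 126 CPM), Habp2, Nr4a2 and Kit on the low side of replicate 1. On its high side the largest was Stk11 (23.9 and 18.3 CPM), followed by Cck, 1110004E09Rik, Ctdnep1 and Mis18a. Gzma was the 1 gene of 7243 past 2-fold.

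Other cell types in the sorts were read from their marker lists. Lymphocyte genes summed to 68.3 and 232 CPM in CD274+CD69+ cells, against 39.7, 62.02 and 69.7 CPM in Lgr5-GFP-Cre cells, so CD274+CD69+ replicate 2 stood above the other 4 libraries. Ptprc, the pan-leukocyte CD45 gene, had 4.32 and 12.7 CPM in CD274+CD69+ cells, against 0, 1.48 and 1.44 CPM in Lgr5-GFP-Cre cells. The T cell receptor chain gene Cd3e had 3.18 and 13.3 CPM in CD274+CD69+ cells, against 2.41, 2.77 and 3.14 CPM in Lgr5-GFP-Cre cells. In Bmi1-GFP libraries the lymphocyte sum lay between 1386 and 3157 CPM. The myeloid and mast list summed to 57.9 and 53.6 CPM in CD274+CD69+ cells, against 29.8, 55.1 and 52.2 CPM in Lgr5-GFP-Cre cells, with Csf1r and Cpa3 at no more than 0.218 CPM in any of the 5 libraries. The stromal, endothelial and erythroid list stayed under 7 CPM in each, and the collagen gene Col1a1 was at 0 in both CD274+CD69+ libraries. Tuft genes summed to 20.1 and 21.3 CPM in CD274+CD69+ cells, against 40.5, 53.7 and 49.96 CPM in Lgr5-GFP-Cre cells. The epithelial adhesion gene Epcam had 1815 and 1771 CPM in CD274+CD69+ cells, against 1939.9, 1703 and 1886 CPM in Lgr5-GFP-Cre cells, and was not called. The 28 Paneth genes summed to 19657 and 23019.9 CPM in CD274+CD69+ cells, against 86559.6, 54035 and 76105 CPM in Lgr5-GFP-Cre cells. With 1 library left out, the call (log2 then) ended for Ptprc (2.08) without CD274+CD69+ replicate 2.

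The test found 6714 of 14837 genes at an adjusted p below 0.05, 3561 higher in CD274+CD69+ cells (24%) and 3153 lower (21.3%), with a median log2 fold change of 0 over all genes tested. The libraries of the groups did not overlap for 6561 of those calls, against 36.4% of all genes tested that lay apart on the high side and 31.5% on the low side. Without CD274+CD69+ replicate 1, 4671 of the calls held in the same direction and 2043 did not. Without replicate 2 the count was 4210, and with both summed it was 4579. Where several single libraries each ended a call, the one named in what follows gave the largest adjusted p when left out.

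Among named genes at 20 CPM or more in the higher group, the largest rises were in a sugar-phosphate exchanger, a kinase, a sodium/proton exchanger and brush border or detoxifying enzymes. The transporter gene Slc37a2 had 72.5 and 73.6 CPM in CD274+CD69+ cells, against 0.896, 1.87 and 1.22 CPM in Lgr5-GFP-Cre cells (log2 5.78, SE 0.65, adjusted p = 2.06e-06). Pim1, a serine/threonine kinase gene, had 122 and 113 CPM in CD274+CD69+ cells, against 1.65, 4.25 and 3.01 CPM in Lgr5-GFP-Cre cells (log2 5.30, SE 0.35, adjusted p = 1.54e-08). Slc9a3, the sodium/proton exchanger NHE3 of absorptive brush borders, had 66.8 and 72.01 CPM in CD274+CD69+ cells, against 1.86, 1.61 and 1.83 CPM in Lgr5-GFP-Cre cells (log2 5.29, SE 0.48, adjusted p = 2.5e-07). The Lgr5-GFP-Cre libraries stood at under 5 CPM for these 3 genes. Libraries that did not overlap were a condition for naming the genes of largest change, so that trait is no separate result. Enterokinase, Tmprss15, which activates trypsinogen, was higher by log2 5.09. Xdh, xanthine dehydrogenase, had 1038 and 1102 CPM in CD274+CD69+ cells, against 29.2, 45.6 and 39.6 CPM in Lgr5-GFP-Cre cells (log2 4.81, SE 0.41, adjusted p = 1.42e-07). Cyp1a1, a detoxifying enzyme gene induced through the aryl hydrocarbon receptor, was higher by log2 5.02, Myo7a, an unconventional myosin of microvilli, by 4.62, and Efnb2, a transmembrane ephrin ligand, by 4.64. H2-Bl and Apol10a (log2 4.73 and 4.61) belong to families of similar genes whose reads may be shared, so their values are uncertain.

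The largest falls were in genes that CD274+CD69+ cells held at a low level. Gkn3, a gastrokine gene, had 4.57 and 5.09 CPM in CD274+CD69+ cells, against 166, 103 and 145 CPM in Lgr5-GFP-Cre cells (log2 -4.83, SE 0.63, adjusted p = 1.29e-05). Cyp2e1, a cytochrome P450 gene, had 0.719 and 0.55 CPM in CD274+CD69+ cells, against 33.00, 33.2 and 37.1 CPM in Lgr5-GFP-Cre cells (log2 -5.75, SE 1.03, adjusted p = 0.000211). Atoh8, a basic helix-loop-helix factor gene, had 1.44 and 1.79 CPM in CD274+CD69+ cells, against 25.5, 21.6 and 21.4 CPM in Lgr5-GFP-Cre cells (log2 -3.81, SE 0.47, adjusted p = 5.55e-06). Every Lgr5-GFP-Cre library was above 20 CPM for these 3 genes, and no CD274+CD69+ library passed 6 CPM. Rgcc, a regulator of cell cycle progression, was lower (log2 -4.71), and so were Trip6 (-4.20), Plekhb1 (-4.19) and the nuclear receptor gene Nr2e3 (-3.97). The zymogen granule genes Sycn and Pgc had log2 -4.41 and -4.10. Pla2g2a, a secreted phospholipase of Paneth cells that is disrupted in C57BL/6 mice, had 29.3 and 34.1 CPM in CD274+CD69+ cells, against 7671, 84.03 and 1128 CPM in Lgr5-GFP-Cre cells (log2 -6.54, SE 1.498, adjusted p = 0.0017). Its Lgr5-GFP-Cre libraries spread over a wide range, all of it above both CD274+CD69+ libraries, as the rule for naming these genes required.

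The sorted antigens and the reporter gene checked the labels, and since the sorts used them they are not findings. Cd274 (chr19:29362107-29388095, GRCm38) had 1.49 and 2.98 CPM in CD274+CD69+ cells, against 0.758, 0.579 and 1.40 CPM in Lgr5-GFP-Cre cells, from 29 and 65 counts against 11, 9 and 32 counts (log2 1.27, SE 0.42, adjusted p = 0.0193). Cd69 (chr6:129267324-129275375) had 0.514 and 3.44 CPM in CD274+CD69+ cells, against 0, 0.257 and 0.0437 CPM in Lgr5-GFP-Cre cells, from 10 and 75 counts against 0, 4 and 1 counts (log2 4.28, SE 1.09, adjusted p = 0.00391). Both transcripts were rare even in the sorted cells, and replicate 2 of the CD274+CD69+ cells, which also had more lymphocyte RNA, carried most of the Cd69 counts. In Bmi1-GFP cells both stood higher, Cd274 at 8.71 ± 0.664 CPM and Cd69 at 12.9 ± 5.16 CPM (SD, n = 3). Lgr5 (chr10:115450314-115587780), the Wnt-potentiating R-spondin receptor, had 19.5 and 24.8 CPM in CD274+CD69+ cells, against 66.3, 93.9 and 80.3 CPM in Lgr5-GFP-Cre cells (log2 -1.85, SE 0.41, adjusted p = 0.00124). The calls that did not survive the loss of 1 library were, with their log2 then, Cd274 (0.68) and Cd69 (2.34) without CD274+CD69+ replicate 2.

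Stem cell genes were lower in CD274+CD69+ cells. Of 35 tested, 25 were lower and the other 10 were not called, with a median log2 of -1.66. The 25 include Lgr5, the reporter gene of the reference sort, which is not a finding. Ascl2, the transcription factor that sets stem cell identity, had 16.5 and 13.7 CPM in CD274+CD69+ cells, against 263, 185 and 178 CPM in Lgr5-GFP-Cre cells (log2 -3.79, SE 0.44, adjusted p = 2.89e-06). Igfbp4, an insulin-like growth factor binding protein gene, had 24.7 and 26.4 CPM in CD274+CD69+ cells, against 283, 308 and 256 CPM in Lgr5-GFP-Cre cells (log2 -3.46, SE 0.32, adjusted p = 3.86e-07). Soat1 and Sp5 were lower by similar margins (log2 -2.27 and -2.41), each with no overlap between groups. Olfm4, the secreted olfactomedin of crypt base cells, had 783 and 784 CPM in CD274+CD69+ cells, against 4126, 5802 and 4934 CPM in Lgr5-GFP-Cre cells (log2 -2.66, SE 0.69, adjusted p = 0.0043). The groups did not overlap, and Olfm4 was still abundant in both CD274+CD69+ libraries. The vitamin D receptor gene Vdr, the most expressed member not called, had 728 and 721 CPM in CD274+CD69+ cells, against 657, 988 and 785 CPM in Lgr5-GFP-Cre cells. The list's count of lower genes was 21 without CD274+CD69+ replicate 1 and 21 with both libraries summed. In bulk RNA, fewer cells of a type and less RNA per cell cannot be told apart.

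Of 7 markers reported for cells at the +4 position, 2 were lower (28.6%, beside 21.3% of all genes tested) and 5 were not called. Hopx, a homeodomain-only protein gene, had 97.8 and 93.5 CPM in CD274+CD69+ cells, against 392, 214 and 303 CPM in Lgr5-GFP-Cre cells (log2 -1.66, SE 0.21, adjusted p = 5.96e-06). The transcription factor gene Sox9 had 106 and 109 CPM in CD274+CD69+ cells, against 374, 545 and 425 CPM in Lgr5-GFP-Cre cells (log2 -2.06, SE 0.34, adjusted p = 0.000116). Lrig1, an ErbB inhibitor, had 121 and 115 CPM in CD274+CD69+ cells, against 111, 154 and 123 CPM in Lgr5-GFP-Cre cells, and was not called, with overlapping libraries. Bmi1 itself had 22.4 and 22.1 CPM in CD274+CD69+ cells, against 18.1, 20.1 and 18.9 CPM in Lgr5-GFP-Cre cells, and was not called (adjusted p = 0.269).

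Wnt pathway genes moved in both directions. Of 29 tested, 10 were lower (34.5%), among them the targets Axin2, Sp5, Ascl2, Cd44 and Sox4, and 7 were higher (24.1%, beside 24% of all genes tested), among them the receptors and co-receptors Fzd5, Lrp5, Lrp6 and Lgr4. Myc, a target gene that drives growth, had 105.3 and 108 CPM in CD274+CD69+ cells, against 428, 380.2 and 336 CPM in Lgr5-GFP-Cre cells (log2 -1.83, SE 0.31, adjusted p = 0.000123). Nkd1, a feedback inhibitor, had 3.18 and 3.21 CPM in CD274+CD69+ cells, against 21.2, 25.3 and 21.7 CPM in Lgr5-GFP-Cre cells (log2 -2.83, SE 0.40, adjusted p = 2.33e-05). The co-receptor gene Lrp6 had 55.8 and 59.1 CPM in CD274+CD69+ cells, against 11.8, 21.6 and 21.1 CPM in Lgr5-GFP-Cre cells (log2 1.66, SE 0.22, adjusted p = 1.46e-05). Lrp5, the frizzled receptor gene Fzd5 and the nuclear effector gene Tcf7l2 were higher too (log2 1.27, 1.23 and 0.98). Rnf43, the ubiquitin ligase that removes frizzled receptors, had 65.7 and 66.5 CPM in CD274+CD69+ cells, against 56.1, 126 and 92.6 CPM in Lgr5-GFP-Cre cells, and was not called. The median over the list was log2 -0.64. With 1 library left out, the call (log2 then) ended for Cd44 (-0.83) without CD274+CD69+ replicate 2.

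Eph receptors and ephrins, which sort cells along the crypt axis under Wnt control, moved in both directions. Of 15 tested, 5 were higher (33.3%, beside 24% of all genes tested) and 4 lower (26.7%, beside 21.3%), so the shares were near those over all genes. Efnb2 had 104 and 102 CPM in CD274+CD69+ cells, against 4.41, 3.15 and 4.72 CPM in Lgr5-GFP-Cre cells (log2 4.64, SE 0.35, adjusted p = 3.49e-08). Epha2 had 90.4 and 91.6 CPM in CD274+CD69+ cells, against 10.5, 21.7 and 12.8 CPM in Lgr5-GFP-Cre cells (log2 2.60, SE 0.39, adjusted p = 3.84e-05), and Epha1 was also higher (log2 1.29). Ephb2 had 43.8 and 38.7 CPM in CD274+CD69+ cells, against 20.5, 35.4 and 25.2 CPM in Lgr5-GFP-Cre cells (log2 0.61, SE 0.22, adjusted p = 0.0327). Efna4 had 11.8 and 11.2 CPM in CD274+CD69+ cells, against 75.8, 66.98 and 69.05 CPM in Lgr5-GFP-Cre cells (log2 -2.62, SE 0.29, adjusted p = 1.66e-06), and Efna3, Ephb3 and Ephb4 were lower as well (log2 -2.14, -1.52 and -0.72). The counts were 3 higher and 2 lower without CD274+CD69+ replicate 1, and 3 were higher without CD274+CD69+ replicate 2, Lgr5-GFP-Cre replicate 1 or Lgr5-GFP-Cre replicate 3. Leaving out 1 library ended the calls (log2 then) of Ephb2 (0.52) and Ephb3 (-1.46) without CD274+CD69+ replicate 1, and Ephb4 (-0.43) without Lgr5-GFP-Cre replicate 2.

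Enterocyte genes were higher in CD274+CD69+ cells. Of 29 tested, 25 were higher and the other 4 were not called, with a median log2 of 2.39. Sis, the brush border sucrase-isomaltase, had 897 and 911 CPM in CD274+CD69+ cells, against 30.8, 60.03 and 70.1 CPM in Lgr5-GFP-Cre cells (log2 4.07, SE 0.53, adjusted p = 1.03e-05). Mttp, which loads lipid onto nascent lipoproteins, had 2701 and 2704 CPM in CD274+CD69+ cells, against 163, 339.6 and 304 CPM in Lgr5-GFP-Cre cells (log2 3.33, SE 0.40, adjusted p = 4.24e-06). Both CD274+CD69+ libraries lay above the highest Lgr5-GFP-Cre library for these genes. Enpep, a brush border peptidase, had 849 and 869 CPM in CD274+CD69+ cells, against 46.4, 92.5 and 89.3 CPM in Lgr5-GFP-Cre cells (log2 3.50, SE 0.36, adjusted p = 1e-06). Mgam, maltase-glucoamylase, had 489 and 509 CPM in CD274+CD69+ cells, against 32.4, 54.4 and 59.8 CPM in Lgr5-GFP-Cre cells (log2 3.35, SE 0.35, adjusted p = 1.05e-06). Apoa4, a lipoprotein made late in enterocyte maturation, had 2173 and 2287 CPM in CD274+CD69+ cells, against 512, 1372 and 1170.2 CPM in Lgr5-GFP-Cre cells, and was not called. The whole list summed to 28978 and 29288 CPM in CD274+CD69+ cells, against 5724, 8537 and 9376 CPM in Lgr5-GFP-Cre cells. The count of higher genes was 20 without CD274+CD69+ replicate 1, 20 without Lgr5-GFP-Cre replicate 1 and 20 with the CD274+CD69+ libraries summed.

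**Figure D2:**
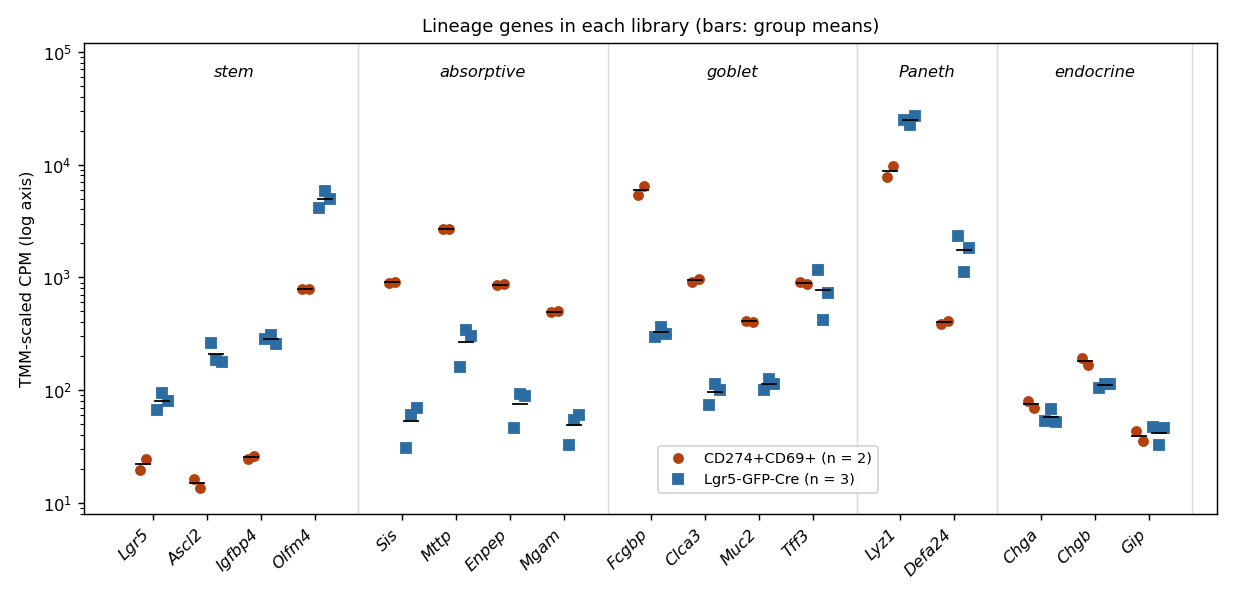
TMM-scaled CPM on a log axis for 17 lineage genes, with 1 point per library and a bar at each group mean; CD274+CD69+ cells are orange circles (n = 2) and Lgr5-GFP-Cre cells blue squares (n = 3). The 4 stem genes lie below, and the 4 absorptive genes and Fcgbp, Clca3 and Muc2 above, every Lgr5-GFP-Cre library in both CD274+CD69+ libraries, while Tff3 and Gip overlap.

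Of 30 goblet genes tested, 9 were higher (30%, beside 24% of all genes tested), 4 lower (13.3%, beside 21.3%) and 17 not called, with a median log2 of 0.25. The count of lower genes was 1 without CD274+CD69+ replicate 1, 1 without replicate 2, and 2 without Lgr5-GFP-Cre replicate 1 or 3. Fcgbp, a mucus-binding glycoprotein, had 5408 and 6416 CPM in CD274+CD69+ cells, against 299, 362 and 318 CPM in Lgr5-GFP-Cre cells (log2 4.18, SE 0.48, adjusted p = 2.55e-06). Clca3, the older symbol of the mucus-processing gene Clca1, had 919 and 977 CPM in CD274+CD69+ cells, against 74.6, 115 and 101 CPM in Lgr5-GFP-Cre cells (log2 3.29, SE 0.51, adjusted p = 5.51e-05). Sytl2 and Bcas1 were higher as well (log2 2.50 and 2.42). Muc2, the gel-forming mucin and a defining goblet marker, had 414 and 404 CPM in CD274+CD69+ cells, against 101, 126 and 114 CPM in Lgr5-GFP-Cre cells (log2 1.85, SE 0.31, adjusted p = 0.000129). Tff3, the other defining marker, had 906 and 875 CPM in CD274+CD69+ cells, against 1153, 416 and 734 CPM in Lgr5-GFP-Cre cells, and was not called, with CD274+CD69+ values inside the Lgr5-GFP-Cre range. Foxa3, a secretory lineage transcription factor, had 37.3 and 40.98 CPM in CD274+CD69+ cells, against 167, 151 and 146 CPM in Lgr5-GFP-Cre cells (log2 -1.98, SE 0.38, adjusted p = 0.000399). Creb3l4, Galnt12 and Ccl6 were lower by less (log2 -0.65, -0.69 and -0.92). Spink4, the most expressed member not called, had 668 and 650.1 CPM in CD274+CD69+ cells, against 1676, 587 and 1081 CPM in Lgr5-GFP-Cre cells. The calls that did not survive the loss of 1 library were, with their log2 then, Creb3l4 (-0.62), Galnt12 (-0.64) and Ccl6 (-0.80) without CD274+CD69+ replicate 1.

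Of 35 genes that build mucin-type sugars, 18 were higher and 3 lower, with a median log2 of 0.71. Gcnt4, a core-branching transferase, had 90.6 and 88.3 CPM in CD274+CD69+ cells, against 6.61, 9.72 and 9.22 CPM in Lgr5-GFP-Cre cells (log2 3.39, SE 0.26, adjusted p = 5.47e-08). Galnt6, Galnt4 and Galnt7, which start O-linked chains, were higher by log2 1.70, 1.63 and 1.30. B4galnt2 had 667 and 657 CPM in CD274+CD69+ cells, against 576, 482 and 629.6 CPM in Lgr5-GFP-Cre cells, and was not called. St6galnac2, St3gal6 and Galnt12 were lower (log2 -0.79, -0.75 and -0.69). The count of higher genes was 17 without CD274+CD69+ replicate 1, where 1 was lower, and all 3 lower calls ended without replicate 2. Calls that ended with 1 library left out, with the log2 then, were St6galnac2 (-0.76) without CD274+CD69+ replicate 2, and St3gal6 (-0.70) and Galnt12 (-0.64) without CD274+CD69+ replicate 1.

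Paneth genes were lower. Of 26 tested, 16 were lower and 10 not called, with a median log2 of -1.72. Lyz1, the granule lysozyme, had 7807 and 9671 CPM in CD274+CD69+ cells, against 24771, 22502 and 27149.7 CPM in Lgr5-GFP-Cre cells (log2 -1.51, SE 0.45, adjusted p = 0.0109). Defa24, an alpha-defensin, had 387 and 415 CPM in CD274+CD69+ cells, against 2342, 1107 and 1814 CPM in Lgr5-GFP-Cre cells (log2 -2.13, SE 0.47, adjusted p = 0.00136). Single alpha-defensins share reads with near-identical copies and are uncertain. Kcne3, a potassium channel subunit, had 114 and 107 CPM in CD274+CD69+ cells, against 705, 325 and 449 CPM in Lgr5-GFP-Cre cells (log2 -2.16, SE 0.32, adjusted p = 4.09e-05). Fgfrl1 and Defa17 were lower too (log2 -1.77 and -2.25), and Ang4, an antimicrobial ribonuclease gene, had 929 and 1079 CPM in CD274+CD69+ cells, against 2844, 1087 and 1970.3 CPM in Lgr5-GFP-Cre cells, and was not called. The summed Paneth level given above was higher in each Lgr5-GFP-Cre library than in either CD274+CD69+ library, and the part of Paneth cells or Paneth RNA in the Lgr5-GFP-Cre sort was not tested. Without CD274+CD69+ replicate 1 the count fell to 6, and with both libraries summed to 10. With 1 library left out, the call (log2 then) ended for Lyz1 (-1.35) without CD274+CD69+ replicate 1.

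Few enteroendocrine genes were called against Lgr5-GFP-Cre cells. Of 15 hormone genes tested, 1 was higher and 2 lower (median log2 0.06). These shares were below those over all genes tested (24% and 21.3%). Granin and prohormone processing genes numbered 20, of which 3 were higher (15%) and 2 lower (10%), also below the shares over all genes (median log2 0.23). Endocrine transcription factors numbered 19, with 3 higher (15.8%) and 2 lower (10.5%), again below those shares, and a median log2 of -0.06. Gip, the incretin of K cells, had 43.7 and 35.2 CPM in CD274+CD69+ cells, against 46.98, 32.6 and 46.5 CPM in Lgr5-GFP-Cre cells, and was not called. Chgb, a granin of dense-core granules, had 193 and 168 CPM in CD274+CD69+ cells, against 104.5, 113 and 114 CPM in Lgr5-GFP-Cre cells (log2 0.70, SE 0.43, adjusted p = 0.194). Pyy, the satiety peptide of L cells, was higher at a low level, with 3.49 and 3.35 CPM in CD274+CD69+ cells, against 0.138, 0.0643 and 0.262 CPM in Lgr5-GFP-Cre cells (log2 4.31, SE 0.96, adjusted p = 0.00138). Ghrl and Sst, ghrelin and somatostatin, were lower (log2 -1.24 and -1.40). Foxa2 had 5.45 and 5.23 CPM in CD274+CD69+ cells, against 26.9, 27.3 and 21.3 CPM in Lgr5-GFP-Cre cells (log2 -2.24, SE 0.33, adjusted p = 3.22e-05), and Nkx2-2 was lower (log2 -1.45). Ddc, the decarboxylase of serotonin synthesis, had 287 and 278 CPM in CD274+CD69+ cells, against 109, 131 and 125 CPM in Lgr5-GFP-Cre cells (log2 1.22, SE 0.27, adjusted p = 0.00147), and Pcsk1 and Scg2 were higher (log2 0.90 and 0.83). Pam, which amidates peptide hormones, was lower (log2 -1.75). Pcsk1n was at 0 CPM in both CD274+CD69+ libraries, against 0.758, 1.22 and 1.14 CPM in Lgr5-GFP-Cre cells. Etv1 and Pax6 stayed under 1 CPM in all 5 libraries, and Mlxipl was higher by log2 0.60. Of 23 tuft genes, Pou2f3, the tuft master factor, was lower at 0.514 and 0.413 CPM in CD274+CD69+ cells, against 4.75, 5.21 and 3.93 CPM in Lgr5-GFP-Cre cells, and the other 22 were not called. That count rests on the fit: it was 7 with DESeq2 and 11 of 18 with only the compared groups fitted, and the call ended without CD274+CD69+ replicate 1, without replicate 2, with the kit term and with both libraries summed. Dclk1 had 1.18 and 1.01 CPM in CD274+CD69+ cells, against 2.07, 3.67 and 2.49 CPM in Lgr5-GFP-Cre cells. The calls that did not survive the loss of 1 library were, with their log2 then, Ghrl (-0.91), Scg2 (0.67), Pam (-1.71), Pcsk1n, Pax6 (1.69) and Pou2f3 (-3.15) without CD274+CD69+ replicate 2, Sst (-1.18), Nkx2-2 (-1.39) and Pcsk1 (0.83) without CD274+CD69+ replicate 1, and Mlxipl (0.42) without Lgr5-GFP-Cre replicate 1.

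Of 22 secretory precursor and Notch ligand genes tested, 9 were lower and 1 higher (median log2 -0.62). Jag1, a Notch ligand, had 19.7 and 20.7 CPM in CD274+CD69+ cells, against 4.82, 5.66 and 4.28 CPM in Lgr5-GFP-Cre cells (log2 2.04, SE 0.24, adjusted p = 3.74e-06). Dll1, the ligand of secretory precursors, had 77.5 and 80.8 CPM in CD274+CD69+ cells, against 48.6, 67.6 and 55.7 CPM in Lgr5-GFP-Cre cells, and was not called. Atoh1, the factor that commits cells to the secretory path, had 24.97 and 24.7 CPM in CD274+CD69+ cells, against 35.1, 39.7 and 39.96 CPM in Lgr5-GFP-Cre cells, and was not called (adjusted p = 0.0912). Pdgfa and Lfng, a growth factor gene and a Notch-modifying glycosyltransferase, were lower (log2 -1.72 and -1.99). Of 14 Notch receptors and targets, 6 were lower (42.9%, beside 21.3% of all genes tested) and 3 higher (21.4%, beside 24%), with a median log2 of -0.49. Hes1, a Notch target repressor, had 73.2 and 70.1 CPM in CD274+CD69+ cells, against 244, 203 and 222 CPM in Lgr5-GFP-Cre cells (log2 -1.64, SE 0.38, adjusted p = 0.00198). Hes5, another target, was called lower from few counts, at 0.0514 and 0.0917 CPM in CD274+CD69+ cells, against 1.65, 1.03 and 0.699 CPM in Lgr5-GFP-Cre cells. Rbpj, the nuclear partner of Notch, had 31.1 and 34.6 CPM in CD274+CD69+ cells, against 19.4, 24.3 and 23.2 CPM in Lgr5-GFP-Cre cells (log2 0.56, SE 0.18, adjusted p = 0.0198), and Notch2 was higher by log2 1.31. Dtx1 had 1.80 and 5.50 CPM in CD274+CD69+ cells, against 1.17, 0.45 and 0.262 CPM in Lgr5-GFP-Cre cells, another gene with more RNA in CD274+CD69+ replicate 2. Dtx4 had 64.2 and 62.4 CPM in CD274+CD69+ cells, against 63.8, 74.4 and 63.02 CPM in Lgr5-GFP-Cre cells, and was not called. All 3 higher calls of the Notch list ended without CD274+CD69+ replicate 2, and 1 was called without CD274+CD69+ replicate 1 or without Lgr5-GFP-Cre replicate 1. Calls that ended with 1 library left out, with the log2 then, were Rbpj (0.48), Notch2 (1.26) and Dtx1 (1.57) without CD274+CD69+ replicate 2.

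Most replication genes were lower than in Lgr5-GFP-Cre cells. Of 45 tested, 36 were lower, 1 higher and 8 not called, with a median log2 of -1.11. Against Lgr5-GFP-DTR cells 18 of the 45 were lower and 4 higher (median log2 -0.54). Rpa2, a subunit of the single-strand binding protein, had 31.4 and 29.9 CPM in CD274+CD69+ cells, against 128, 103 and 108 CPM in Lgr5-GFP-Cre cells (log2 -1.88, SE 0.22, adjusted p = 3.18e-06). Gins2, part of the replicative helicase, had 13.97 and 12.01 CPM in CD274+CD69+ cells, against 62.00, 45.5 and 47.5 CPM in Lgr5-GFP-Cre cells (log2 -1.99, SE 0.28, adjusted p = 2.5e-05). Rfc3, a clamp loader subunit, and Pola2, a primase-polymerase subunit, were lower by log2 -1.65 and -1.46. The 1 higher than in Lgr5-GFP-Cre cells was Pole, the catalytic subunit of polymerase epsilon, with 26.6 and 25.8 CPM in CD274+CD69+ cells, against 9.78, 16.7 and 14.3 CPM in Lgr5-GFP-Cre cells (log2 0.94, SE 0.28, adjusted p = 0.0104). Mcm4 had 79.1 and 76.7 CPM in CD274+CD69+ cells, against 91.3, 111 and 102 CPM in Lgr5-GFP-Cre cells, and was not called. The list had 26 lower genes without CD274+CD69+ replicate 1. The call that ended with 1 library left out, with the log2 then, was Pole (0.92) without CD274+CD69+ replicate 1.

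Mitotic genes were mixed. Of 40 tested, 16 were lower (40%, beside 21.3% of all genes tested) and 5 higher (12.5%, beside 24%), with a median log2 of -0.31. Cdk1, the mitotic kinase, had 58.97 and 53.7 CPM in CD274+CD69+ cells, against 194, 114 and 147 CPM in Lgr5-GFP-Cre cells (log2 -1.43, SE 0.25, adjusted p = 0.000197). Ube2c, Cenpa and Cdca8 were lower (log2 -1.32, -1.23 and -1.01). Mki67, the proliferation antigen Ki-67, had 147 and 137 CPM in CD274+CD69+ cells, against 92.7, 104 and 97.1 CPM in Lgr5-GFP-Cre cells (log2 0.53, SE 0.19, adjusted p = 0.0284), and Espl1, Bub1 and Anln were higher by similar amounts (log2 0.76, 0.71 and 0.69). Without CD274+CD69+ replicate 1 the list had 10 lower genes, and with both libraries summed 8, and the 5 higher calls ended in both. Without replicate 2 it had 6 lower genes and no higher call stood, as was so for the higher calls without Lgr5-GFP-Cre replicate 1, while 3 higher calls stood without Lgr5-GFP-Cre replicate 2 and 1 without replicate 3. Ccna2 had 143 and 129 CPM in CD274+CD69+ cells, against 149, 164 and 156 CPM in Lgr5-GFP-Cre cells, and was not called. Of 15 genes for cell cycle exit and inhibitors, 8 were higher and 2 lower (median log2 1.06). Cdkn2b, which encodes p15, had 133 and 118 CPM in CD274+CD69+ cells, against 14.7, 26.4 and 24.2 CPM in Lgr5-GFP-Cre cells (log2 2.52, SE 0.28, adjusted p = 2.08e-06). Rb1, the retinoblastoma gene, had 71.8 and 69.3 CPM in CD274+CD69+ cells, against 11.6, 12.6 and 14.1 CPM in Lgr5-GFP-Cre cells (log2 2.47, SE 0.26, adjusted p = 1.03e-06). Tob1 and Cdkn1a, which encodes p21, were higher by log2 1.93 and 1.54, whereas Cdkn1b, which encodes p27, was lower (9.14 and 8.53 CPM in CD274+CD69+ cells, against 18.9, 19.4 and 15.2 CPM in Lgr5-GFP-Cre cells, log2 -1.01, SE 0.19, adjusted p = 0.000262). Cdkn2c was lower (log2 -0.83) and Btg1 had 161 and 177 CPM in CD274+CD69+ cells, against 175, 196 and 212 CPM in Lgr5-GFP-Cre cells, and was not called. The calls that did not survive the loss of 1 library were, with their log2 then, Mki67 (0.49), Espl1 (0.69), Bub1 (0.58) and Anln (0.60) without CD274+CD69+ replicate 1, and Cdkn2c (-0.66) without CD274+CD69+ replicate 2.

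Cytosolic ribosomal protein genes were lower with 1 exception. Of 43 tested, 42 were lower, with a median log2 of -1.45, and Rpl30, counted at under 1 CPM in every library of the groups compared, was not called. Rps3 had 372 and 341 CPM in CD274+CD69+ cells, against 1755, 781 and 1169 CPM in Lgr5-GFP-Cre cells (log2 -1.79, SE 0.26, adjusted p = 2.91e-05). Rplp0 had 769 and 699 CPM in CD274+CD69+ cells, against 3152, 1754 and 2152 CPM in Lgr5-GFP-Cre cells (log2 -1.68, SE 0.25, adjusted p = 3.87e-05). The Lgr5-GFP-Cre libraries spread widely for these genes, with replicate 1 highest and replicate 2 lowest, and Rps2 and Rpl3 kept the same order (log2 -1.66 and -1.29). Of 25 clustered histone genes, 9 were lower (36%, beside 21.3% of all genes tested) and 16 not called (median log2 -0.998). Among the 9 was Hist1h1b, with 15.6 and 12.2 CPM in CD274+CD69+ cells, against 126, 48.4 and 78.9 CPM in Lgr5-GFP-Cre cells (log2 -2.60, SE 0.38, adjusted p = 3.39e-05). Hist1h4d, Hist1h2ae and Hist1h1e were lower as well (log2 -3.02, -2.63 and -2.01), while Hist1h2bc had 61.3 and 59.04 CPM in CD274+CD69+ cells, against 66.1, 35.6 and 60.5 CPM in Lgr5-GFP-Cre cells, and was not called. The part of RNA capture in the histone calls was not tested.

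Of 36 endoplasmic reticulum folding and unfolded protein response genes, 20 were higher and 1 lower (median log2 0.78). Ern1, the stress sensor IRE1 alpha, had 21.01 and 22.6 CPM in CD274+CD69+ cells, against 3.79, 5.85 and 3.14 CPM in Lgr5-GFP-Cre cells (log2 2.36, SE 0.25, adjusted p = 1e-06). Ero1l, an oxidase for disulfide formation, had 120.4 and 117 CPM in CD274+CD69+ cells, against 29.8, 21.7 and 28.96 CPM in Lgr5-GFP-Cre cells (log2 2.14, SE 0.21, adjusted p = 5.5e-07). The chaperone gene Canx and the degradation adaptor gene Sel1l were higher by log2 1.48 and 1.38. Pdia6 had 439 and 435 CPM in CD274+CD69+ cells, against 483, 387 and 416 CPM in Lgr5-GFP-Cre cells, and was not called, and Derl3 was lower at a low level (log2 -2.09). Of 46 translocation and COPII or COPI transport genes, 18 were higher (39.1%, beside 24% of all genes tested) and 7 lower (15.2%, beside 21.3%). The median log2 was 0.20. Sec23a, a COPII coat subunit, had 324 and 324 CPM in CD274+CD69+ cells, against 31.7, 50.6 and 45.9 CPM in Lgr5-GFP-Cre cells (log2 2.92, SE 0.32, adjusted p = 1.57e-06). Sec24d, Copa and Sec24c followed (log2 2.63, 1.98 and 1.64). The cargo receptor gene Tmed9 was lower, with 136 and 129 CPM in CD274+CD69+ cells, against 287, 178 and 223 CPM in Lgr5-GFP-Cre cells (log2 -0.79, SE 0.22, adjusted p = 0.00742), and so were Tmed10, Tmed3 and Srp14 (log2 -0.54, -0.70 and -0.88). Tmed2 had 706 and 692 CPM in CD274+CD69+ cells, against 766, 652 and 718 CPM in Lgr5-GFP-Cre cells, and was not called. The transport list had 1 lower gene without CD274+CD69+ replicate 1, 3 without Lgr5-GFP-Cre replicate 1 and 11 without Lgr5-GFP-Cre replicate 2, and its lower calls all ended without CD274+CD69+ replicate 2. Calls that ended with 1 library left out, with the log2 then, were Derl3 (-1.93) and Srp14 (-0.87) without CD274+CD69+ replicate 1, and Tmed9 (-0.75), Tmed10 (-0.51) and Tmed3 (-0.65) without CD274+CD69+ replicate 2.

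**Figure D3:**
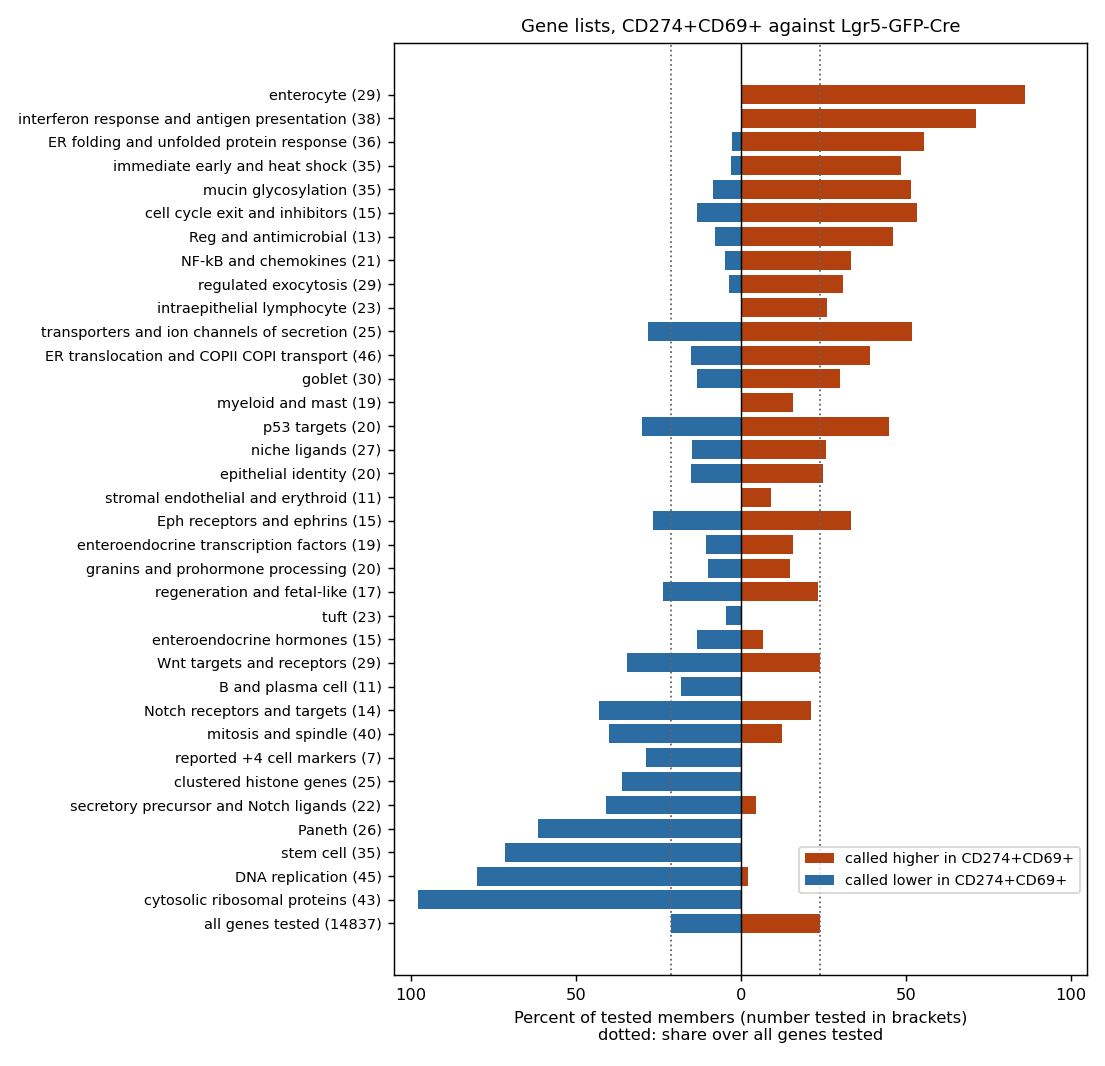
Percent of the tested members of each gene list called higher (orange, right) or lower (blue, left) in CD274+CD69+ cells against Lgr5-GFP-Cre cells, with the number tested in brackets; dotted lines mark the 24% higher and 21.3% lower over all genes tested. The enterocyte and interferon lists stand at the top with 25 of 29 and 27 of 38 members higher, and stem cell, DNA replication and ribosomal protein lists at the bottom.

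Interferon response and antigen presentation genes were mostly higher than in Lgr5-GFP-Cre cells. Of 38 tested, 27 were higher and 11 not called, with a median log2 of 2.08. Against Lgr5-GFP-DTR cells 15 of the 38 were higher and 2 lower (median log2 1.04). Against Bmi1-GFP cells 0 were higher and 2 lower (median log2 -0.03). Nlrc5, the activator of class I genes, had 14.3 and 16.3 CPM in CD274+CD69+ cells, against 0.964, 0.193 and 0.306 CPM in Lgr5-GFP-Cre cells (log2 5.01, SE 0.71, adjusted p = 2.44e-05). Ifit1, an interferon-induced antiviral gene, had 24.9 and 25.6 CPM in CD274+CD69+ cells, against 1.10, 2.12 and 2.58 CPM in Lgr5-GFP-Cre cells (log2 3.68, SE 0.54, adjusted p = 3.1e-05). Stat2, which carries the interferon signal, was higher by log2 2.30. B2m, the class I light chain, had 1327 and 1277 CPM in CD274+CD69+ cells, against 1487, 501 and 991 CPM in Lgr5-GFP-Cre cells, and was not called. The class II genes, chosen after their values were seen, moved with Ciita, the class II transactivator, which had 55.8 and 55.7 CPM in CD274+CD69+ cells, against 4.48, 5.85 and 5.24 CPM in Lgr5-GFP-Cre cells (log2 3.42, SE 0.67, adjusted p = 0.000505). H2-Aa had 476 and 462 CPM in CD274+CD69+ cells, against 41.8, 35.7 and 42.5 CPM in Lgr5-GFP-Cre cells (log2 3.55, SE 0.89, adjusted p = 0.0033). H2-Eb1 had 288 and 271 CPM in CD274+CD69+ cells, against 29.5, 44.6 and 44.2 CPM in Lgr5-GFP-Cre cells (log2 2.82, SE 0.83, adjusted p = 0.0101). H2-DMb1, part of the peptide-loading catalyst, had 100.2 and 90.7 CPM in CD274+CD69+ cells, against 22.04, 17.7 and 18.6 CPM in Lgr5-GFP-Cre cells (log2 2.30, SE 0.79, adjusted p = 0.0244). Both CD274+CD69+ libraries lay above every Lgr5-GFP-Cre library for each of these 4 genes, but the H2-DMb1 call ended with each of the 5 libraries left out in turn. The B and plasma cell list summed to 217 and 202 CPM in CD274+CD69+ cells, against 359, 388 and 330.4 CPM in Lgr5-GFP-Cre cells, with Cd79a under 1 CPM in all 5 libraries, and the myeloid sums are those given above. With 1 library left out, the call (log2 then) ended for H2-DMb1 (2.23) without CD274+CD69+ replicate 1.

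Class II promoters carry upstream boxes read by the complex that CIITA joins, among them the X box and the Y box, so the RefSeq windows (GRCm38.p6, 250 bases before to 50 after the start) of these 3 class II genes are shown. Of 38 genes on the list 28 have a window in the table. They lie at chr17:34287774-34288073 on the minus strand (H2-Aa), chr17:34305617-34305916 on the plus strand (H2-Eb1) and chr17:34152941-34153240 on the plus strand (H2-DMb1). Capitals mark GATTGG, the core of the Y box, and TGACGTCA, a full-length form of the X2 element of the X box, each searched on both strands without overlap between them.
H2-Aa: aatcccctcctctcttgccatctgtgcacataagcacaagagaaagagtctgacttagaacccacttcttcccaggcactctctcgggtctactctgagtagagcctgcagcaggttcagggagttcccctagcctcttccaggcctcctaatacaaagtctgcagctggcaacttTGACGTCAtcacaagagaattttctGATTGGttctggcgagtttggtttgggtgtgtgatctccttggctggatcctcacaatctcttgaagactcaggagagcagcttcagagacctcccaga
H2-Eb1: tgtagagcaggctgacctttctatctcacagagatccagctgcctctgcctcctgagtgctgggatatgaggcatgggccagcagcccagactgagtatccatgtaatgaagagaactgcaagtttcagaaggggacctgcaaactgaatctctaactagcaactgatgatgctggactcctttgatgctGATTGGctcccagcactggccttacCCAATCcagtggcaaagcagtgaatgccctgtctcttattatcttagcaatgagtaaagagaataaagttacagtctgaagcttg
H2-DMb1: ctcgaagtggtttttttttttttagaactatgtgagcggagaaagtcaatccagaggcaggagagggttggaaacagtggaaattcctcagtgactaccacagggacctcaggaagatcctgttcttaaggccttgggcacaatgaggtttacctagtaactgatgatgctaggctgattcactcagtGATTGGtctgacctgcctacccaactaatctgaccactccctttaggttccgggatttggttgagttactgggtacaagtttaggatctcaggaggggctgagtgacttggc
GATTGG began 49, 60 and 62 bases before the start in H2-Aa, H2-Eb1 and H2-DMb1 and is found in 16.1% of 32851 such windows. H2-Eb1 held a further copy on the other strand. TGACGTCA was in the H2-Aa window alone of these 3, and in 1.79% of all windows. Only this exact string was searched, so its absence from the H2-Eb1 and H2-DMb1 windows does not show that they lack an X box. A match is a string of letters in a window, and no binding was measured here.

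Immediate early genes were higher in CD274+CD69+ cells, whose dissociation differed. Of 35 immediate early and heat shock genes, 17 were higher and 1 lower (median log2 1.28). Fosb, an AP-1 subunit, had 179 and 198 CPM in CD274+CD69+ cells, against 24.8, 30.4 and 31.7 CPM in Lgr5-GFP-Cre cells (log2 2.70, SE 0.37, adjusted p = 1.63e-05). Klf6 had 488 and 498 CPM in CD274+CD69+ cells, against 64.1, 92.5 and 90.8 CPM in Lgr5-GFP-Cre cells (log2 2.58, SE 0.26, adjusted p = 8.52e-07). Fosl2 and the phosphatase gene Dusp5 were higher by log2 2.20 and 2.13. Fos had 1665 and 1694 CPM in CD274+CD69+ cells, against 607, 1203 and 972 CPM in Lgr5-GFP-Cre cells, and was not called, and Myc was the lower member. The list summed to 12174 and 12211 CPM in CD274+CD69+ cells, against 5928, 7451 and 6171 CPM in Lgr5-GFP-Cre cells. Across the fit it lay between 4722 and 15552 CPM in 10 Dispase libraries, between 5928 and 10118 CPM in 8 TrypLE libraries and between 1598 and 2454 CPM in 6 libraries of unsorted crypts with no enzyme named. The Dispase libraries include CD274+CD69+ cells labelled DT-treated (50 ug/kg) and goblet cells of mice given DBZ (48 mg/kg). Those with no enzyme named include secretory progenitors of mice given DBZ (48 mg/kg) and Rbpj-deleted ones. Enzyme, treatment and population cannot be told apart across these libraries. Of 21 NF-kB and chemokine genes, 7 were higher (33.3%, beside 24% of all genes tested) and 1 lower (4.76%, beside 21.3%), with a median log2 of 0.51. Tnfaip3, the NF-kB inhibitor A20, had 75.6 and 101 CPM in CD274+CD69+ cells, against 7.92, 15.4 and 14.5 CPM in Lgr5-GFP-Cre cells (log2 2.80, SE 0.36, adjusted p = 9.98e-06). Nfkbiz, Il18 and Birc3 were higher (log2 2.20, 1.36 and 1.10), Nfkbia had 246 and 232 CPM in CD274+CD69+ cells, against 104, 269.5 and 255 CPM in Lgr5-GFP-Cre cells, and was not called, and Relb was lower with overlapping libraries (log2 -0.72). The NF-kB count of higher genes was 4 without CD274+CD69+ replicate 2. The call that ended with 1 library left out, with the log2 then, was Relb (-0.70) without CD274+CD69+ replicate 2.

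**Figure D4:**
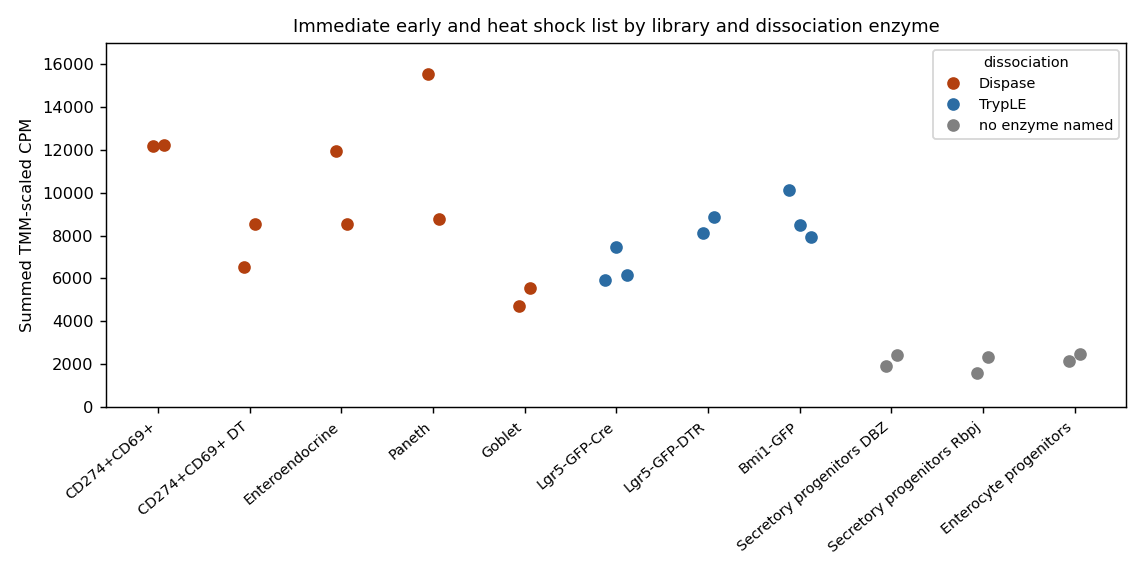
Summed TMM-scaled CPM of 36 immediate early and heat shock genes in each of 24 libraries, coloured by the dissociation enzyme that the labels name (orange Dispase, blue TrypLE, grey none). The CD274+CD69+ libraries stand at 12174 and 12211, the Lgr5-GFP-Cre libraries between 5928 and 7451, and goblet cells, also released with Dispase but from DBZ-treated mice, at 4722 and 5547.

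Of 27 niche ligand genes, 7 were higher (25.9%, beside 24% of all genes tested) and 4 lower (14.8%, beside 21.3%), with a median log2 of 0.47, so the shares were near or below those over all genes. The count of lower genes was 2 without CD274+CD69+ replicate 1. Areg, an EGF receptor ligand, had 157 and 159 CPM in CD274+CD69+ cells, against 17.3, 27.9 and 33.9 CPM in Lgr5-GFP-Cre cells (log2 2.58, SE 0.44, adjusted p = 0.000141). Hbegf, Ereg and Ihh, which encodes Indian hedgehog, were higher by log2 2.21, 3.63 and 1.54. Bmp7 had 8.94 and 8.85 CPM in CD274+CD69+ cells, against 32.2, 39.7 and 36.8 CPM in Lgr5-GFP-Cre cells (log2 -2.03, SE 0.31, adjusted p = 4.91e-05), and Wnt3, a Paneth cell ligand for stem cells, had 5.96 and 7.79 CPM in CD274+CD69+ cells, against 21.2, 25.9 and 22.3 CPM in Lgr5-GFP-Cre cells (log2 -1.75, SE 0.48, adjusted p = 0.00669). Nrg4 was lower (log2 -1.87). Of 17 regeneration and fetal-like genes, 4 were higher and 4 lower (23.5% each, near the shares over all genes, with a median log2 of 0.20), and 2 were lower without CD274+CD69+ replicate 2. Il33 had 21.7 and 22.05 CPM in CD274+CD69+ cells, against 0.482, 2.32 and 3.14 CPM in Lgr5-GFP-Cre cells (log2 3.42, SE 0.68, adjusted p = 0.000509). Clu, a clusterin gene known from revival stem cells, had 0.925 and 0.642 CPM in CD274+CD69+ cells, against 5.03, 8.62 and 8.73 CPM in Lgr5-GFP-Cre cells (log2 -3.25, SE 0.52, adjusted p = 7.77e-05). Cd44 and Krt7 were lower (log2 -0.86 and -1.06). Of 20 p53 target genes, 9 were higher (45%, beside 24% of all genes tested) and 6 lower (30%, beside 21.3%), with a median log2 of 0.71. The cell death gene Pmaip1 had 213 and 218 CPM in CD274+CD69+ cells, against 15.6, 39.95 and 34.2 CPM in Lgr5-GFP-Cre cells (log2 2.85, SE 0.31, adjusted p = 1.41e-06). Sesn1, Mdm2 and Perp were higher (log2 1.78, 1.02 and 1.01). Phlda3, Aen, Bax and Sesn2 were lower (log2 -3.56, -1.42, -1.07 and -1.06), and Bbc3 had 20.1 and 18.98 CPM in CD274+CD69+ cells, against 10.1, 38.1 and 21.7 CPM in Lgr5-GFP-Cre cells, and was not called. The p53 list had 3 lower genes without CD274+CD69+ replicate 2. Calls that ended with 1 library left out, with the log2 then, were Wnt3 (-1.57) and Nrg4 (-1.82) without CD274+CD69+ replicate 1, and Cd44 (-0.83), Krt7 (-1.02) and Sesn2 (-0.93) without CD274+CD69+ replicate 2.

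Apical host defence, ion transport and granule release genes completed the lists. Of 13 Reg and antimicrobial genes, 6 were higher and 1 lower (median log2 1.63). Pigr, the receptor that carries IgA to the lumen, had 6932 and 6793 CPM in CD274+CD69+ cells, against 1413, 2845 and 2381 CPM in Lgr5-GFP-Cre cells (log2 1.63, SE 0.28, adjusted p = 0.000127). Ptprh, Duox2 and Nos2 were higher (log2 3.81, 3.59 and 2.59), Reg4 was lower (log2 -1.75), and the bactericidal lectin gene Reg3g had 1495 and 1360.2 CPM in CD274+CD69+ cells, against 696, 136 and 305 CPM in Lgr5-GFP-Cre cells, and was not called. Of 25 transporters and channels, 13 were higher (52%, beside 24% of all genes tested) and 7 lower (28%, beside 21.3%), with a median log2 of 1.01. Slc26a3, a chloride/bicarbonate exchanger, had 151 and 147 CPM in CD274+CD69+ cells, against 13.8, 21.4 and 21.97 CPM in Lgr5-GFP-Cre cells (log2 2.97, SE 0.31, adjusted p = 1.02e-06), and Slc4a4 was higher by log2 2.68. Kcnq1, the channel partner of Kcne3, had 124 and 117 CPM in CD274+CD69+ cells, against 341, 586 and 440.1 CPM in Lgr5-GFP-Cre cells (log2 -1.92, SE 0.40, adjusted p = 0.000797), and the chloride loader gene Slc12a2 and channel gene Kcnn4 were lower (log2 -0.98 and -0.86). Clca2 had 18.4 and 18.4 CPM in CD274+CD69+ cells, against 7.92, 28.6 and 29.2 CPM in Lgr5-GFP-Cre cells, and was not called. Of 29 exocytosis genes, 9 were higher (31%, beside 24% of all genes tested) and 1 lower (3.45%, beside 21.3%), with a median log2 of 0.67. Rab27a, a granule GTPase, had 16.4 and 16.7 CPM in CD274+CD69+ cells, against 1.58, 4.44 and 3.97 CPM in Lgr5-GFP-Cre cells (log2 2.29, SE 0.37, adjusted p = 7.58e-05), Unc13d and Unc13b were higher (log2 2.69 and 1.43), and Vamp4 was lower (log2 -0.96). Stxbp2 had 161 and 162 CPM in CD274+CD69+ cells, against 141, 205 and 169 CPM in Lgr5-GFP-Cre cells, and was not called. Of 20 epithelial identity genes 5 were higher (25%, beside 24% of all genes tested) and 3 lower (15%, beside 21.3%), so the shares were near or below those over all genes. Hnf4g, a nuclear receptor of enterocytes, had 621 and 619 CPM in CD274+CD69+ cells, against 52.5, 65.8 and 82.02 CPM in Lgr5-GFP-Cre cells (log2 3.21, SE 0.31, adjusted p = 5.43e-07), and the caudal factor gene Cdx1 had 351 and 320.4 CPM in CD274+CD69+ cells, against 798, 854 and 649 CPM in Lgr5-GFP-Cre cells (log2 -1.19, SE 0.23, adjusted p = 0.000378). Vil1, Cdh1 and Gata4 were higher (log2 1.56, 1.08 and 0.77), Krt18 and Cldn7 were lower (log2 -0.96 and -0.47), and Krt8 had 5616 and 5338 CPM in CD274+CD69+ cells, against 3421, 4085 and 3482 CPM in Lgr5-GFP-Cre cells, and was not called. Leaving out 1 library ended the calls (log2 then) of Reg4 (-1.67) without CD274+CD69+ replicate 1, and Vamp4 (-0.84), Krt18 (-0.92) and Cldn7 (-0.43) without CD274+CD69+ replicate 2.

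Most calls named here from the immune lists rest on few reads, with Itgam, Sdc1 and Blnk as exceptions. Of 23 intraepithelial lymphocyte genes, 6 were higher (26.1%, beside 24% of all genes tested) and 17 not called, with a median log2 of 1.54. Cd8b1 had 1.03 and 3.21 CPM in CD274+CD69+ cells, against 0.138, 0.129 and 0.175 CPM in Lgr5-GFP-Cre cells (log2 3.77, SE 0.92, adjusted p = 0.00285), Cd3d was higher by log2 2.65, and Cd4 had 0.154 and 0.458 CPM in CD274+CD69+ cells and was at 0 in all 3 Lgr5-GFP-Cre libraries. Gzma had 15.5 and 51.7 CPM in CD274+CD69+ cells, against 10.5, 14.5 and 20.8 CPM in Lgr5-GFP-Cre cells, and was not called. The count was 11 without CD274+CD69+ replicate 1, and all 6 calls ended without replicate 2, the library with the most lymphocyte RNA. It was 10 with DESeq2 and 10 without the low-count filter. Of 19 myeloid and mast genes 3 were higher, and 1 without CD274+CD69+ replicate 2, Lgr5-GFP-Cre replicate 1 or Lgr5-GFP-Cre replicate 3, led by Itgam, the integrin CD11b, with 28.5 and 28.01 CPM in CD274+CD69+ cells, against 2.07, 2.64 and 3.10 CPM in Lgr5-GFP-Cre cells (log2 3.43, SE 0.30, adjusted p = 1.65e-07). Csf2rb and Itgax stayed under 2 CPM in each of the 5 libraries, and Cd14 had 20.8 and 16.1 CPM in CD274+CD69+ cells, against 21.4, 44.9 and 40.4 CPM in Lgr5-GFP-Cre cells, and was not called. Of 11 B and plasma cell genes 2 were lower (18.2%, beside 21.3% of all genes tested), Sdc1 and Blnk (log2 -0.73 and -0.96), both at 40.6 CPM or more, and Pou2af1 was not called. The share of myeloid and mast genes called higher, 15.8%, was likewise below the 24% over all genes. Of 11 stromal, endothelial and erythroid genes 1 was higher (9.09%, below the 24% over all genes), Alas2, at 0 in all Lgr5-GFP-Cre libraries and under 1 CPM in CD274+CD69+ cells. Vim had 3.13 and 4.17 CPM in CD274+CD69+ cells, against 2.82, 3.09 and 3.41 CPM in Lgr5-GFP-Cre cells, and was not called. The calls that did not survive the loss of 1 library were, with their log2 then, Cd8b1 (2.73), Cd3d (1.49), Cd4, Itgax (1.53) and Sdc1 (-0.67) without CD274+CD69+ replicate 2, and Csf2rb and Alas2 without CD274+CD69+ replicate 1.

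The same CD274+CD69+ libraries were set against Lgr5-GFP-DTR and Bmi1-GFP cells. The comparisons share the CD274+CD69+ libraries, so agreement between them is not independent. Against Lgr5-GFP-DTR cells 3853 genes were higher (26%) and 3376 lower (22.8%). Of 29 enterocyte genes 24 were higher, and of 35 stem cell genes 20 were lower, Lgr5 among them. Paneth genes were lower for 21 of 26. Not every list repeated its result against Lgr5-GFP-Cre cells. With Lgr5-GFP-DTR cells as reference, goblet calls numbered 8 upward and 11 downward among 30 (median log2 -0.41). Transport calls numbered 11 upward and 16 downward among 46 (median log2 -0.06). Folding and unfolded protein response calls numbered 10 upward (27.8%) and 8 downward (22.2%) among 36, near the 26% and 22.8% over all genes. The Paneth list summed to 361857 and 239995 CPM in the Lgr5-GFP-DTR libraries, against 549169 and 276271 CPM in sorted Paneth cells. Tuft genes summed to 2735 and 3745 CPM in Lgr5-GFP-DTR cells. The part of Paneth and tuft cells in that sort was not tested. Against Bmi1-GFP cells 1371 genes were higher (9.24%) and 1442 lower (9.72%), and 4 of 29 enterocyte genes were higher, with 1 of 35 stem cell genes higher and 1 lower. Ascl2 averaged 15.1 ± 1.97 CPM in CD274+CD69+ cells (SD, n = 2), against 208 ± 47.5 CPM in Lgr5-GFP-Cre (n = 3), 126 ± 81.5 CPM in Lgr5-GFP-DTR (n = 2) and 20.6 ± 4.99 CPM in Bmi1-GFP cells (n = 3). Sis averaged 904 ± 10.1 CPM in CD274+CD69+ cells (SD, n = 2), against 53.6 ± 20.4 CPM in Lgr5-GFP-Cre (n = 3), 58.8 ± 9.65 CPM in Lgr5-GFP-DTR (n = 2) and 589 ± 262 CPM in Bmi1-GFP cells (n = 3). For both genes the CD274+CD69+ mean lay nearest to that of Bmi1-GFP cells.

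Endocrine and tuft genes were lower in CD274+CD69+ than in Bmi1-GFP cells. Of 20 granin and prohormone processing genes, 19 were lower in CD274+CD69+ cells (median log2 -4.88), and so were 12 of 15 hormone genes (-5.22), 14 of 19 endocrine transcription factor genes (-3.48) and 22 of 23 tuft genes (-6.27). Over all genes tested 9.72% were lower. Chgb averaged 180.1 ± 17.7 CPM in CD274+CD69+ cells (SD, n = 2), against 111 ± 5.23 CPM in Lgr5-GFP-Cre (n = 3), 102 ± 7.34 CPM in Lgr5-GFP-DTR (n = 2) and 2451 ± 1260.1 CPM in Bmi1-GFP cells (n = 3) (log2 -3.77, SE 0.51, adjusted p = 0.000155 against Bmi1-GFP cells). Gip averaged 39.5 ± 5.99 CPM in CD274+CD69+ cells (SD, n = 2), against 42.04 ± 8.16 CPM in Lgr5-GFP-Cre (n = 3), 48.9 ± 11.3 CPM in Lgr5-GFP-DTR (n = 2) and 1549 ± 716 CPM in Bmi1-GFP cells (n = 3) (log2 -5.29, SE 0.64, adjusted p = 6.56e-05). Tuft genes were also lower than in Lgr5-GFP-DTR cells for 22 of 23 (median log2 -8.26), against 1 of 23 lower than in Lgr5-GFP-Cre cells, a difference between comparisons that was not tested. In the other direction 14 of 46 transport coat genes (30.4%) and 13 of 35 mucin glycosylation genes (37.1%) were higher than in Bmi1-GFP cells, beside 9.24% of all genes tested. List counts against Bmi1-GFP cells were not made with a library left out. Fcgbp averaged 5912 ± 713 CPM in CD274+CD69+ cells (SD, n = 2), against 326 ± 32.2 CPM in Lgr5-GFP-Cre (n = 3), 163 ± 107 CPM in Lgr5-GFP-DTR (n = 2) and 1136 ± 508 CPM in Bmi1-GFP cells (n = 3) (log2 2.38, SE 0.45, adjusted p = 0.00172). Lymphocyte genes were lower in CD274+CD69+ than in Bmi1-GFP cells for 20 of 23 tested, beside the Bmi1-GFP sum of 1386 to 3157 CPM given above. The total against Bmi1-GFP cells depended on the CD274+CD69+ pair: it was 2813 with both libraries, 603 without replicate 1, 804 without replicate 2 and 669 with them summed, and 1486 without Bmi1-GFP replicate 1. Scaling by RLE gave 872 higher and 1547 lower genes.

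**Figure D5:**
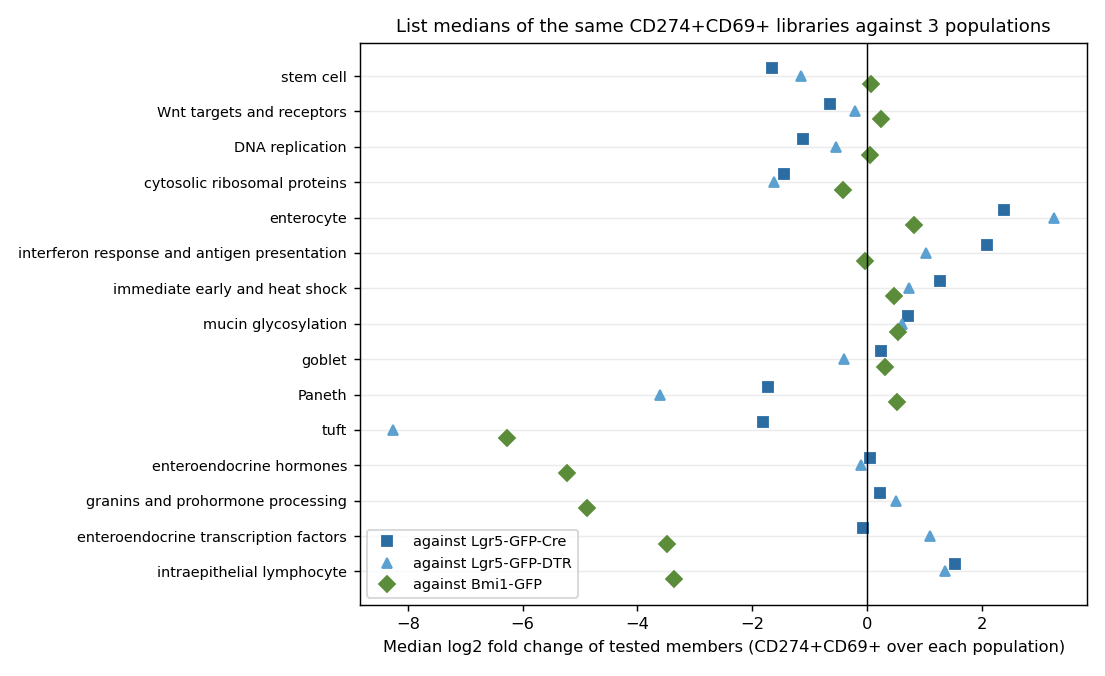
Median log2 fold change of the tested members of 15 lists for CD274+CD69+ cells over Lgr5-GFP-Cre (square), Lgr5-GFP-DTR (triangle) and Bmi1-GFP cells (diamond). Stem cell and DNA replication medians lie below 0 against both Lgr5-GFP populations and near 0 against Bmi1-GFP cells, and the hormone, granin and endocrine factor medians lie at -5.22, -4.88 and -3.48 against Bmi1-GFP cells.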

How the data were processed

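Reads of RNA from sorted crypt cells were single-end and 75 bp long (NextSeq 500, per the labels). The authors deposited 1 table of read counts per gene symbol, not normalized, for all 25 RNA libraries. Bowtie2, TopHat2 2.0.6, DESeq2 and the mm10 build are named in the submitters' processing notes. Not given in the sources used here are the program that counted reads, its annotation and whether strand was used. Columns took their samples from their names, which left 0 without one. Of 24062 symbols, 22550 were RefSeq symbols and 1372 synonyms only.

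Library totals lay between 11179085 and 27371108 counts. Groups followed the labels. The replicates are called biological in the labels, which do not say which share a mouse, litter or day, so p-values measure the spread between these libraries. Genes passing filterByExpr (minimum count 10, total 15) were scaled by TMM and tested with edgeR 4.0.16 (R 4.3.3), by glmQLFit and glmQLFTest over 24 libraries in 11 groups, with Benjamini-Hochberg adjustment over 14837 genes and a threshold of 0.05. The group with 1 library was left out. The scripts were tested on simulated counts with known changes.

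Named genes were the sorted antigens and Lgr5, the 10 largest called changes each way at 20 CPM or more without overlap between libraries and held without CD274+CD69+ replicate 1, and for each of 35 lists up to 4 called members each way of lowest adjusted p plus the most expressed member not called. Defining markers and class II genes were added. The lists were chosen with earlier results of these data known. Alternatives were RLE scaling, no filter, DESeq2 1.42.0, the compared groups only, a replicate block, a kit term and each library left out. The other TruSeq libraries make up the whole Rbpj-deleted group. The kit term could thus be estimated only from CD274+CD69+ replicate 1 against replicate 2. Summing the CD274+CD69+ libraries was added after the data were seen. Some genes that this rule names are not reported here.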

Additional observations from a re-analysis of the deposited data

How the results depend on the processing

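Against Lgr5-GFP-Cre cells the 6714 calls came to 6740 with RLE scaling, 6374 without the filter, 7181 with DESeq2, 6672 with the compared groups only, 4778 with a kit term and 4579 with the CD274+CD69+ libraries summed, an alternative chosen after seeing the data. Leaving out single libraries gave 4210 to 6660. Against Lgr5-GFP-DTR cells the 7229 calls came to between 4983 and 6590 with 1 library left out. Against Bmi1-GFP cells the 2813 calls came to 4489 with the compared groups only, 618 with the kit term, 669 with the libraries summed, and 603 to 2609 with 1 library left out. RLE scaling moved log2 values there by -0.10 and the share of higher calls to 36%, and DESeq2 gave 37.2%, against 48.7%. The cause was not tested. The kit term is in effect the fit without CD274+CD69+ replicate 1 and no separate adjustment for kit. The goblet median log2, for instance, was 0.21 in both.

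CD274+CD69+ and Lgr5-GFP-Cre libraries share replicate numbers, and a replicate block gave 6287 calls against Lgr5-GFP-Cre, 7073 against Lgr5-GFP-DTR and 2541 against Bmi1-GFP cells. Deviations of a library from the others of its group correlated at 0.17 across genes for both same-numbered pairs. The deviation of CD274+CD69+ replicate 2 is that of replicate 1 with the sign turned, so the 2 values are not separate. Only 2 pairs exist and nothing in the labels ties them, so the numbers were not taken as pairing.

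Of 240 named genes, 223 by the rule and 17 added markers and class II genes, 200 were called. Calls of 44 were lost with the libraries summed, 37 with the kit term, 14 with the block, 9 with the compared groups only, 2 with RLE, 2 without the filter and 1 with DESeq2. With 1 library left out, between 12 and 52 were lost, 55 different genes in all. Of 70 counts of list members called higher or lower, 24 moved by over 1.5 times with the libraries summed, 22 with the kit term, 10 with the compared groups only, 6 with the block, 4 with DESeq2, 3 without the filter, 0 with RLE, and 6 to 26 with 1 library left out. No called gene changed sign under these alternatives. Sign turned in uncalled genes, whose log2 spanned 0 with 1 library left out: Gip (-0.25 to 0.0592), Foxa1 (-0.14 to 0.0647), Vdr (-0.29 to 0.0058), Lrig1 (-0.23 to 0.0126), Pdia6 (-0.0428 to 0.12), Tmed2 (-0.0868 to 0.029), Nfkbia (-0.14 to 0.41), Bbc3 (-0.61 to 0.29), Stxbp2 (-0.21 to 0.0537), Rpl30 (-0.84 to 0.69), Tff3 (-0.0843 to 0.63) and Hist1h2bc (-0.0736 to 0.32). Foxa1 also turned with the kit term (0.0543), Tmed2 with the replicate block (0.0137), as did Epcam (0.0133) and Chga (-0.0236), and Pdia6 with RLE (-0.00739) and DESeq2 (-0.00737).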
